A study of Mus musculus with 4 samples.

Results

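The genes described here are Mbp, Mog, Mag, Mobp, Cnp, Cldn11, Mal, Opalin and Ugt8a, 9 of the 55403 features counted. They were chosen by symbol as genes of the central myelin sheath, not by any measured value, and all 9 were found and all 9 passed the low-count filter in oligodendrocytes. They were read as unique molecular identifiers (UMIs) in oligodendrocyte nuclei of each library, and then in every other cell class, where a myelin transcript can be RNA that was free in the droplet suspension.

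The study profiled nuclei of frozen, pooled mouse hippocampus with a 10x 3′ droplet kit, in a tau transgenic line with and without raised SORLA, a sorting receptor encoded by Sorl1. The WT group (1 library) carried neither transgene. The PS19 group (2 libraries) carried a mutant human 1N4R tau under the prion promoter, the transgene Tg(Prnp-MAPT*P301S)PS19Vle/J, from a line with the background B6;C3. The TG_PS19 group (1 library) carried the same tau transgene and, in addition, a Rosa26 transgene that overexpresses SORLA from a CMV/β-actin promoter element, a broadly active kind of promoter. The groups were littermates from crosses of these lines. The title calls the mice aged, and no age is given in the labels used here.

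Myelin is a spiral of oligodendrocyte membrane that insulates axons and feeds them metabolically. Its cytoplasmic faces are zipped together by basic proteins, its layers are sealed by tight junctions, and its outer leaflet is rich in galactolipids. The transcription factors SOX10 and MYRF switch on many of its genes as a precursor matures into a myelinating cell.

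Promoter windows from 250 bases before to 50 bases after the RefSeq start (GRCm38.p6) were at hand for 8 of the 9 genes. The 5 below belong to the members whose level in oligodendrocytes differed between genotypes, and to Opalin, which differed in one oligodendrocyte cluster. Capitals mark the SOX letters ACAAAG and the MYRF letters CTGGNAC on either strand (CTTTGT and GTNCCAG on the other). No match of one motif overlapped a match of another.
Cldn11: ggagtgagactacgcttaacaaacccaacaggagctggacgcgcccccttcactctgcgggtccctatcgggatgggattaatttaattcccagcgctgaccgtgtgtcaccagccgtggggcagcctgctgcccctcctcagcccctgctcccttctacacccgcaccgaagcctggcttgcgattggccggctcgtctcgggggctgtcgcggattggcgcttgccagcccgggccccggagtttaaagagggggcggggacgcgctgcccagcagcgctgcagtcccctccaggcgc
Mal: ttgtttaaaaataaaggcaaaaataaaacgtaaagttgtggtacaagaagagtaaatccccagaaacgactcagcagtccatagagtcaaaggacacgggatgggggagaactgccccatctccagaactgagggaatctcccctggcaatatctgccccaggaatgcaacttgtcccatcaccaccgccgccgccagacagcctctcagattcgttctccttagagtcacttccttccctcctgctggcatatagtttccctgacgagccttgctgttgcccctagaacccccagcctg
Mobp: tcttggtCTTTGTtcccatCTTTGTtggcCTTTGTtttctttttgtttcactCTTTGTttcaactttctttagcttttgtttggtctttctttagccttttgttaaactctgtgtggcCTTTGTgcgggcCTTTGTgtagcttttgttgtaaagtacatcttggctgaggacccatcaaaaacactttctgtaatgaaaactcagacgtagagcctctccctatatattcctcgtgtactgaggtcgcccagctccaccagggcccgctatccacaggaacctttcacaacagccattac
Mag: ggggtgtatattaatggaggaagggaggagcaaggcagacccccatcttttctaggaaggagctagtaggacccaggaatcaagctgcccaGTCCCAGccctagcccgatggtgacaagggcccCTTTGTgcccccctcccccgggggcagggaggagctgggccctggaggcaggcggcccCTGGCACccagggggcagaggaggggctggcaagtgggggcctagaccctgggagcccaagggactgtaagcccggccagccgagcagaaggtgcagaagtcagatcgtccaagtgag
Opalin: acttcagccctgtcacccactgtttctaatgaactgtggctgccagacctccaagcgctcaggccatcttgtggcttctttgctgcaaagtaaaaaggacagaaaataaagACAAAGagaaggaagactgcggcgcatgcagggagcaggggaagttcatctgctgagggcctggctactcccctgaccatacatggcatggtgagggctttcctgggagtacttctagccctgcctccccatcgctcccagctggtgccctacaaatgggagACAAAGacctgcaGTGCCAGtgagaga

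The Mobp window (chr9:120149492-120149791, plus strand) held 6 matches to ACAAAG, the most found in any of 32851 RefSeq promoter windows. Of those windows 18.7% held at least 1 such match and 0.198% held at least 3. The Mag window (chr7:30914814-30915113, minus strand) held 1 SOX match and 2 MYRF matches, and the Opalin window (chr19:41077064-41077363, minus strand) held 2 and 1. A MYRF match was present in 19.3% of all windows. The windows of Cldn11 (chr3:31149670-31149969, plus strand) and Mal (chr2:127656646-127656945, minus strand) held neither. GC content ran from 43.3% for Mobp to 66.3% for Cldn11 among these 5 windows. Of the windows not printed, Cnp held 1 SOX and 2 MYRF matches, Mog held 1 MYRF match, and Ugt8a, with a GC content of 78.3%, held neither. A match describes the letters and is not a binding site.

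The libraries held 4643 to 12762 barcodes and 20064025 to 48670533 UMIs, with PS19 the smaller in both. Library pairs shared 5 to 32 barcodes. Levels are UMIs per 1000000 UMIs (CPM). Human MAPT was at 0 in WT, 17.6 and 18.6 in PS19 and 12.9 in TG_PS19. Human SORL1 was at 65.4 CPM in TG_PS19 and at most 0.375 in the other libraries. Clusters were named from marker genes, and both oligodendrocyte clusters had 9 of 9 oligodendrocyte markers raised, none of them a member. They held 3170 nuclei in WT, 1820 and 1844 in PS19, and 3015 in TG_PS19. That was 29.4% of named WT nuclei (exact 95% binomial interval 28.5 to 30.2), 41.6% (40.1 to 43.0) and 39.9% (38.5 to 41.4) of those in the PS19 libraries, and 36.8% (35.8 to 37.9) in TG_PS19. Median UMIs per oligodendrocyte were 1918 in WT, 2429 and 3040 in PS19 and 2005 in TG_PS19, so levels below are CPM of the summed class scaled by the trimmed mean of M-values (TMM). One library stood apart in its sex mix: 1122 oligodendrocytes of TG_PS19 carried Xist and no Y-linked UMI, against 4 in WT and 0 and 1 in PS19.

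Among markers of Schwann cells, which make peripheral myelin, Pmp2 had 0 UMIs in oligodendrocytes in every library. Cdh19, which is on the same list, had 2295 to 3174 UMIs. Astrocyte markers summed to 531 CPM in WT oligodendrocytes, 255 and 220 in PS19 and 397 in TG_PS19, with 0 of 7 markers at 0. Dentate granule markers summed to 722, 652, 713 and 790 CPM in the same order. The part of these transcripts in the results below was not tested.

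In oligodendrocytes, 3 of the 9 genes differed between PS19 and WT. Cldn11 and Mobp were higher in PS19 and Mal was lower, and the other 6, Mbp among them, did not pass the test. In this class edgeR's quasi-likelihood test with Benjamini-Hochberg adjustment called 6.56% of 16097 genes in that comparison (2.44% higher, 4.12% lower). Between TG_PS19 and PS19, Cldn11 and Mag were lower in TG_PS19, 2 of 9, where 8.67% of genes were called (3.16% lower). Between TG_PS19 and WT 0 of 9 were called, where 3.29% of genes were called. The lowest adjusted p of the 9 in that edgeR test was 0.0718, for Opalin, and DESeq2 also called 0. The median log2 fold change of the 9 was -0.04 for PS19 against WT (-0.00 over all genes tested), -0.12 for TG_PS19 against PS19 (-0.01) and -0.12 for TG_PS19 against WT (-0.02). The first and second comparisons share the PS19 libraries and TG_PS19 against WT shares a library with each, so their values are given side by side only. WT and TG_PS19 had 1 library each and were assumed to vary like the PS19 pair. The labels do not say whether that pair came from separate pools, so p-values rest only on the spread between these samples. In oligodendrocytes that spread came from the trend over genes. A gene's own gap within the PS19 pair did not enter its p-value there.

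**Figure D1:**
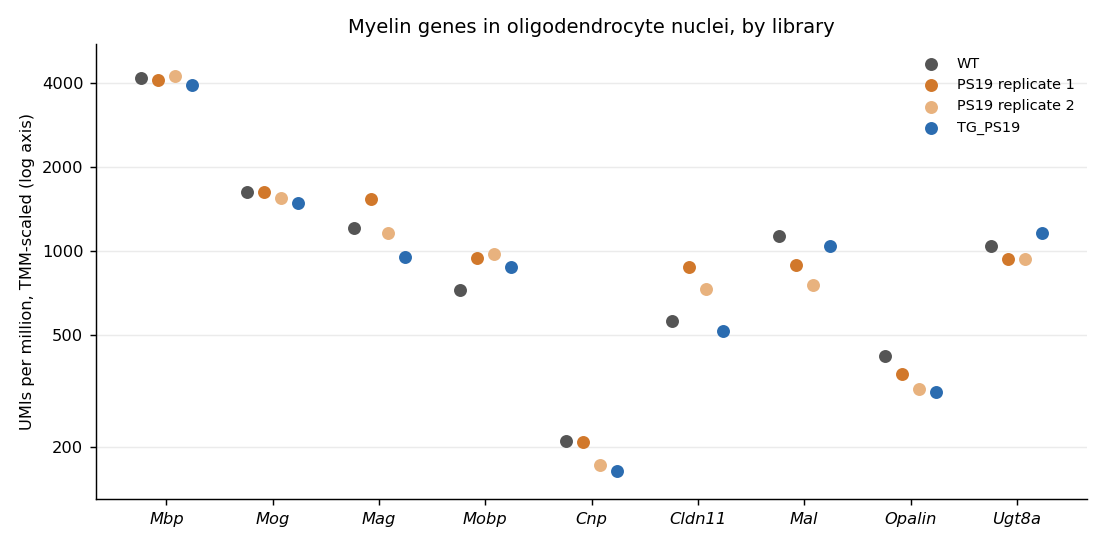
TMM-scaled CPM (log axis) of the 9 genes in oligodendrocyte nuclei, with 1 point per library. The PS19 points for Cldn11 (878 and 734) lie above WT (562) and TG_PS19 (518), and those for Mal (893 and 758) lie below WT (1129) and TG_PS19 (1044), while the 4 points for Mbp run from 3921 to 4218.

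**Figure D2:**
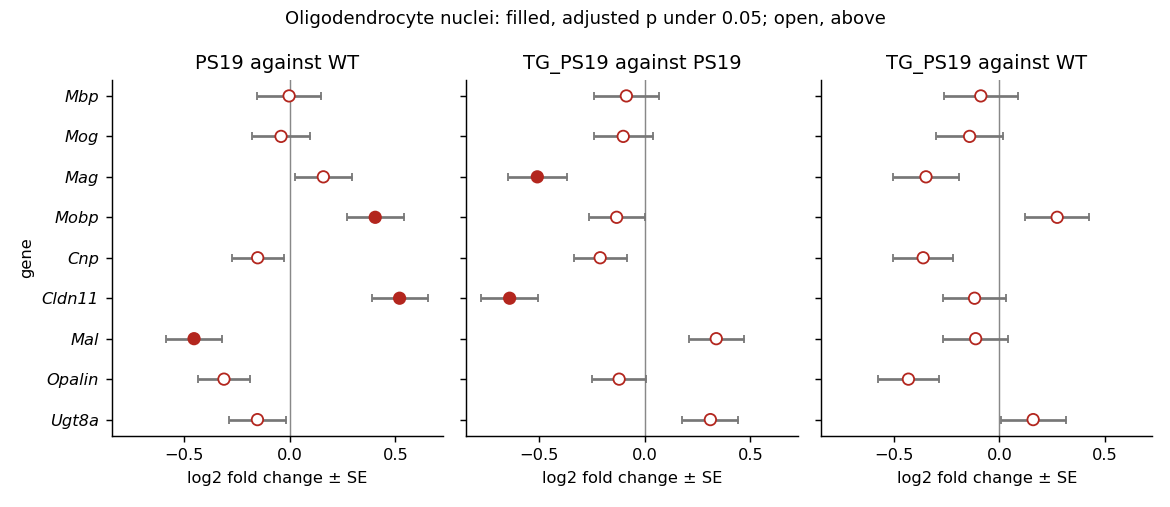
Log2 fold changes of the 9 genes in oligodendrocyte nuclei with standard errors, in the 3 comparisons. Filled points passed an adjusted p of 0.05: Cldn11, Mobp and Mal for PS19 against WT, Cldn11 and Mag for TG_PS19 against PS19, and none for TG_PS19 against WT.

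Among the proteins that hold the membrane layers together, Mbp encodes the basic protein that compacts the cytoplasmic faces. It stood at 4169 CPM in WT, 4105 and 4218 in PS19 (mean 4162 ± 80.1, SD, n = 2) and 3921 in TG_PS19. The WT value lay between those of the PS19 pair and TG_PS19 lay just below all others. Its log2 fold change was -0.00 (SE 0.153) for PS19 against WT and -0.09 (SE 0.153) for TG_PS19 against PS19, with adjusted p-values of 0.997 and 0.829 by edgeR's quasi-likelihood test. After thinning each nucleus to 1000 UMIs, 97.8% of WT oligodendrocytes had an Mbp UMI, 97.3% and 97.4% of PS19 and 96.4% of TG_PS19 oligodendrocytes.

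Mobp, which encodes a small basic protein of the same cytoplasmic faces, was at 724 CPM in WT, 942 and 975 in PS19 (mean 958 ± 23.5, SD, n = 2) and 875 in TG_PS19. WT was the lowest library, and the gap between WT and PS19 was many times that within the pair. The log2 fold change of PS19 against WT was 0.40 (SE 0.134, adjusted p = 0.0409, edgeR). This call was near the threshold: with library totals in place of TMM the value was 0.35 (adjusted p = 0.125), DESeq2 gave 0.41 (adjusted p = 0.212) and thinning 0.43 (adjusted p = 0.368). Without either PS19 library in turn it ran from 0.39 to 0.43. TG_PS19 was between WT and PS19 and differed from neither by the test, with 0.27 against WT (SE 0.152, adjusted p = 0.409) and -0.13 against PS19 (SE 0.132, adjusted p = 0.643). The thinned share of oligodendrocytes with an Mobp UMI was 48.9% in WT, 59.6% and 59.5% in PS19 and 54.4% in TG_PS19.

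Cnp encodes CNPase, an enzyme of the cytoplasmic channels of myelin (chr11:100574904-100591729). It was at 210.1 CPM in WT, 208 and 172 in PS19 and 164 in TG_PS19. WT and PS19 replicate 1 were nearly level, and PS19 replicate 2 was nearer TG_PS19. No comparison passed the test, with log2 fold changes of -0.15 (SE 0.123), -0.21 (SE 0.126) and, for TG_PS19 against WT, -0.36 (SE 0.143, adjusted p = 0.166).

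Among the surface and adhesion proteins, Mog encodes an immunoglobulin-like protein of the outermost myelin layer (chr17:37010743-37023398). It was at 1632 CPM in WT, 1629 and 1546 in PS19 and 1480 in TG_PS19. Its log2 fold changes were -0.04, -0.10 and -0.14 in the 3 comparisons, with standard errors of 0.138 to 0.16, and none passed.

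Mag encodes the adhesion protein of the inner myelin layer that faces the axon (chr7:30899176-30914873). It was at 1209 CPM in WT, 1540 and 1161 in PS19 (mean 1351 ± 268, SD, n = 2) and 950.3 in TG_PS19. The PS19 pair spread wider for Mag than for any other member and WT fell inside it, so that PS19 against WT gave 0.16 (SE 0.136, adjusted p = 0.62). TG_PS19 lay below both PS19 libraries, with a log2 fold change of -0.51 (SE 0.138, adjusted p = 0.00557, edgeR). The wide PS19 spread of Mag did not enter that test, whose spread came from the trend over genes. Without PS19 replicate 1 that value was -0.29, and without replicate 2 it was -0.70. Library totals (adjusted p = 0.101), DESeq2 (adjusted p = 0.999) and thinning (adjusted p = 0.433) did not call it. The thinned share of oligodendrocytes with a Mag UMI was 71.0% in WT, 77.3% and 66.4% in PS19 and 59.4% in TG_PS19, the lowest.

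Opalin encodes a membrane glycoprotein of mature oligodendrocytes. It was at 423 CPM in WT, 363 and 320 in PS19 and 314 in TG_PS19. WT was the highest library. Over all oligodendrocytes no comparison passed: -0.31 for PS19 against WT (SE 0.123, adjusted p = 0.122) and -0.43 for TG_PS19 against WT (SE 0.144, adjusted p = 0.0718).

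Cldn11 encodes the claudin of the tight junctions that seal myelin layers (chr3:31149920-31164324). It was at 562 CPM in WT, 878 and 734 in PS19 (mean 806.0 ± 101, SD, n = 2) and 518 in TG_PS19. Both PS19 libraries lay above WT and TG_PS19. The share of all genes in that order was not counted. The log2 fold change was 0.52 for PS19 against WT (SE 0.132, adjusted p = 0.00251) and -0.64 for TG_PS19 against PS19 (SE 0.133, adjusted p = 7.98e-05), both by edgeR. Leaving out either PS19 library gave 0.39 to 0.65 and -0.76 to -0.50. The first call was lost with library totals (adjusted p = 0.103) and with DESeq2 (adjusted p = 0.0844), and the second was kept by both (0.0233 and 0.00629). With nuclei thinned to 1000 UMIs both calls were lost, with values of 0.47 (adjusted p = 0.454) and -0.60 (adjusted p = 0.348). TG_PS19 against WT was -0.12 (SE 0.15, adjusted p = 0.789).

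Counted per nucleus, Cldn11 gave 1.18 UMIs in WT, 2.3 and 2.33 in PS19 and 1.08 in TG_PS19, but PS19 nuclei were also sequenced deeper. After thinning to 1000 UMIs, a Cldn11 UMI was found in 44.3% of WT, 57.0% and 48.4% of PS19 and 39.4% of TG_PS19 oligodendrocytes. The unthinned shares were 66.3%, 84.9%, 83.8% and 61.4%. The order of the libraries was the same on the scaled, thinned and unthinned measures except within the PS19 pair, whose gap was wider after thinning.

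Mal encodes a proteolipid that carries lipid-raft cargo to the myelin membrane (chr2:127633226-127656695). It was at 1129 CPM in WT, 893 and 758 in PS19 (mean 826 ± 95.3, SD, n = 2) and 1044 in TG_PS19. Both PS19 libraries lay below WT and TG_PS19, the opposite order to Cldn11. The log2 fold change was -0.45 for PS19 against WT (SE 0.131, adjusted p = 0.0125, edgeR), and 0.34 for TG_PS19 against PS19, which did not pass (SE 0.131, adjusted p = 0.0869). The first call was lost with library totals (adjusted p = 0.0604), with DESeq2 (adjusted p = 0.235) and with thinning (adjusted p = 0.412), and leaving out either PS19 library gave -0.57 to -0.33.

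On the per-nucleus scale Mal did not show this order. An oligodendrocyte held 2.37 Mal UMIs in WT, 2.34 and 2.4 in PS19 and 2.17 in TG_PS19, while the 9 genes together held 23.3, 30.1, 34.3 and 21.7. The lower CPM of Mal in PS19 was thus a lower share of more UMIs per nucleus. With depth equalised at 1000 UMIs, a Mal UMI was found in 67.4% of WT, 56.6% and 50.8% of PS19 and 61.0% of TG_PS19 oligodendrocytes.

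Ugt8a encodes the galactosyltransferase that makes galactosylceramide, the main galactolipid of myelin (chr3:125865271-125938619). It was at 1043 CPM in WT, 940 and 937 in PS19 and 1164 in TG_PS19. The PS19 pair were the closest of any member (SD 2.17, n = 2) and TG_PS19 was the highest library. No comparison passed, with -0.15 for PS19 against WT (SE 0.133, adjusted p = 0.634) and 0.31 for TG_PS19 against PS19 (SE 0.132, adjusted p = 0.134).

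Oligodendrocytes fell into 2 clusters, each fitted on its own. Cluster 0, led by Slc13a1, Opalin and Il33, held 1602 WT nuclei, 1011 and 982 of PS19 and 1504 of TG_PS19. Cluster 1, led by Anln and Hapln2, held 1568, 809, 862 and 1511. Since Opalin leads cluster 0, its level between the clusters is no result, but its levels across genotypes within a cluster are. In cluster 1 Opalin was at 334 CPM in WT, 229 and 207 in PS19 and 228 in TG_PS19, so that WT lay well above the other 3 libraries. The log2 fold change there was -0.62 for PS19 against WT (SE 0.134, adjusted p = 0.00032) and -0.55 for TG_PS19 against WT (SE 0.156, adjusted p = 0.028). In cluster 0 it was at 532 CPM in WT, 495 and 440 in PS19 and 424 in TG_PS19, with -0.19 (SE 0.141, adjusted p = 0.588) and -0.33 (SE 0.164, adjusted p = 0.446). Whether the clusters differ in this was not tested.

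Cldn11 and Mal were called for PS19 against WT in both clusters, and Mag and Cldn11 for TG_PS19 against PS19 in both. Mobp passed in cluster 0 (0.45, SE 0.147, adjusted p = 0.0489) and not in cluster 1 (0.38, SE 0.138, adjusted p = 0.103), where its fold change was close. The edgeR fits called 5.25%, 6.15% and 1.54% of genes in cluster 0 for PS19 against WT, TG_PS19 against PS19 and TG_PS19 against WT. In cluster 1 they called 3.98%, 5.35% and 2.06%.

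**Figure D3:**
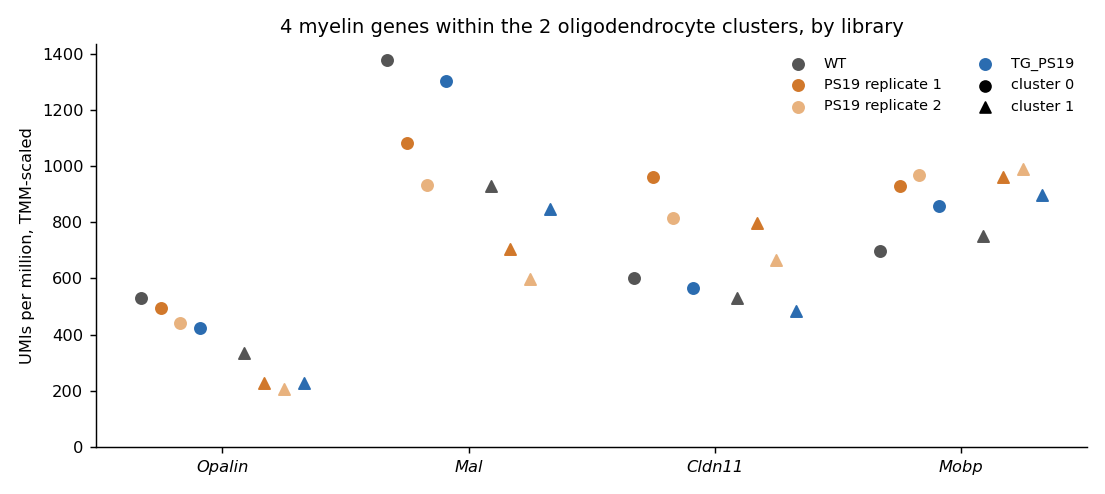
TMM-scaled CPM of Opalin, Mal, Cldn11 and Mobp in the 2 oligodendrocyte clusters, 1 point per library (circles, cluster 0; triangles, cluster 1). In cluster 1 Opalin is at 334 in WT and at 207 to 229 in the other libraries.

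Some members differed within the TG_PS19 library between nuclei carrying Y-linked UMIs and nuclei carrying Xist. Mobp was at 677 CPM (unscaled, exact Poisson interval 641 to 715) in 824 Y-called oligodendrocytes and at 1051 (1011 to 1092) in 1122 Xist-called ones. Y-called nuclei stood at 757 in WT and at 951 and 977 in PS19. The Y-called TG_PS19 nuclei were thus below every other library and the Xist-called ones above.

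Opalin ran the other way within TG_PS19, at 339.8 CPM (314 to 367) in Y-called and 243 (224 to 264) in Xist-called nuclei. Ugt8a was at 1247 (1197 to 1297) and 979 (940.2 to 1019). Mag was at 923 and 849.7 and Cldn11 at 453 and 531. Each set of nuclei comes from the animals of 1 pool. Nuclei with neither call were shallower, and for some genes they also differed from Y-called nuclei of the same library. Mal in PS19 replicate 1 was at 849 (817 to 881) in Y-called and 1004 (953 to 1057) in uncalled nuclei. Ugt8a in WT was at 1116 and 1015, while Mobp in WT was at 757 and 734, with overlapping intervals. Uncalled TG_PS19 nuclei were at 750.5 for Mobp and 1173 for Ugt8a. The part of depth in these gaps was not tested.

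With Y-called nuclei alone in TG_PS19, Mobp was lower in TG_PS19 than in PS19 (log2 -0.45, adjusted p = 0.0259) and Ugt8a was higher (0.46, adjusted p = 0.017, edgeR). With Y-called nuclei alone in every library the corresponding values were -0.46 (adjusted p = 0.0193) and 0.45, and Cldn11 (-0.74) and Mag (-0.48) were lower too. These fits called 6.24% and 6.37% of all genes. With Xist-called nuclei alone, Mobp was higher in TG_PS19 than in WT (0.60, adjusted p = 0.00719) and Opalin was lower (-0.74, adjusted p = 0.00016), where 4.18% of genes were called. Sex and the animals of the pool cannot be told apart in this library.

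**Figure D4:**
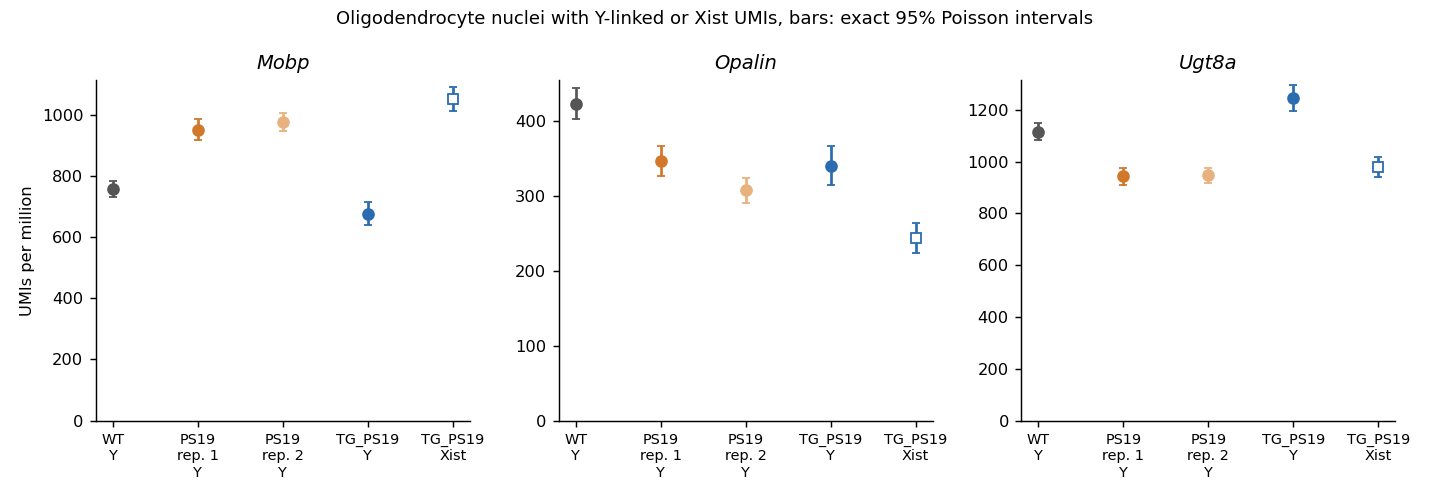
Unscaled CPM of Mobp, Opalin and Ugt8a in oligodendrocytes carrying Y-linked UMIs (circles) in each library and carrying Xist (open square) in TG_PS19, with exact 95% Poisson intervals. Mobp in TG_PS19 is at 677 in the first and 1051 in the second.

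A list of 40 other genes of myelin and the oligodendrocyte lineage was read in the same fit, and all 40 passed the low-count filter. For PS19 against WT 2 were higher and 2 lower, with a median log2 fold change of 0.01. For TG_PS19 against PS19 3 were higher and 6 lower (median -0.06), and for TG_PS19 against WT 0 were higher and 2 lower (median -0.09). The same fit called 6.56%, 8.67% and 3.29% of all genes in these comparisons, against which the 4, 9 and 2 genes of 40 are to be read. Of all genes, 5.5% were higher in TG_PS19 than in PS19, and 2.07% were higher and 1.21% lower in TG_PS19 than in WT.

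Of the 18 sheath and adhesion genes, none differed between PS19 and WT. In TG_PS19 3 were lower than in PS19, among them Cd9, a tetraspanin, and Pllp, a plasma-membrane proteolipid related to Mal. Cd9 was at 262 CPM in WT, 365 and 308 in PS19 and 226 in TG_PS19, which differed from PS19 by -0.57 on the log2 scale (SE 0.128, adjusted p = 0.000298, edgeR). That call was lost with thinning (adjusted p = 0.347) and with DESeq2 (adjusted p = 0.0641), and Pllp (-0.50) was lost with both and with library totals (adjusted p = 0.06).

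Among the 12 lipid genes, 2 of cholesterol synthesis were called in the same directions. Hmgcs1, an early enzyme of that pathway, was at 42.1 CPM in WT, 23.7 and 26.0 in PS19 and 36.8 in TG_PS19. Sqle, the squalene epoxidase, was at 29.9, 18.7, 16.4 and 27.7. For both, the PS19 pair lay below WT and TG_PS19. How many of all genes had that order was not counted. The log2 fold changes were -0.76 (SE 0.163, adjusted p = 0.000163) and -0.78 (SE 0.185, adjusted p = 0.00101) for PS19 against WT, and 0.56 and 0.67 for TG_PS19 against PS19. The PS19 against WT calls were lost with thinning and DESeq2, and the TG_PS19 against PS19 calls with those, with library totals (adjusted p = 0.113 and 0.104) and with Y-called nuclei in every library. Cers2, a synthase of the long-chain ceramides of myelin, was lower in TG_PS19 than in PS19 (-0.51) and in WT (-0.48, adjusted p = 0.033), and both calls were lost with library totals (adjusted p = 0.0897 and 0.227), thinning and DESeq2.

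Among the 10 transcription factors, Myrf was at 169 CPM in WT, 229 and 223 in PS19 and 200.1 in TG_PS19, and was higher in PS19 than in WT (0.42, SE 0.127, adjusted p = 0.02). Olig2, a lineage factor, was also higher in PS19 than in WT (0.54) and lower in TG_PS19 than in PS19 (-0.64). Tcf7l2, which acts at the step to myelination, was higher in TG_PS19 than in PS19 (0.57). The calls of Myrf, Olig2 and Tcf7l2 were each lost with library totals (adjusted p from 0.0558 to 0.171), with thinning and with DESeq2. Sox8, a relative of Sox10, was at 212 CPM in WT, 206 and 173 in PS19 and 117 in TG_PS19, below all others. Its log2 fold changes were -0.70 against PS19 (SE 0.131), lost with thinning alone (adjusted p = 0.315), and -0.86 against WT (SE 0.146), lost with library totals (adjusted p = 0.0512), thinning and DESeq2.

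Across 11 classes in 4 libraries (44 points that share libraries and depth), the non-member genes whose log2 level was most like the mean of the 9 were Ermn (Pearson r 0.97), Hapln2 (0.97), C030029H02Rik (0.96), Gm21984 (0.96), Galnt6 (0.96), Gm42756 (0.96), 4930420G21Rik (0.96) and B230206H07Rik (0.95), out of 22312 genes compared. Of the members, Mog (0.985) followed that mean most closely and Ugt8a (0.874) least.

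Outside oligodendrocytes, summed UMIs of the 9 genes were found in every class, at a low level in most and highest in newly formed oligodendrocytes. In the 27 and 29 neuroblasts of PS19 some genes stood higher than in most classes. Cnp was there at 36.2% and 55.5% of its oligodendrocyte level, on 7 and 10 UMIs, and Mog at 3.3% and 2.47%. WT and TG_PS19 neuroblasts had 0 and 1 Cnp UMIs. Neuroblasts stayed among the other nuclei throughout. Oligodendrocytes held 88.6% of all UMIs of the 9 genes in kept nuclei (unnamed ones included) in WT, 93.3% and 92.7% in PS19 and 86.6% in TG_PS19. In TG_PS19, 3288 of 75544 such UMIs lay in 1 unnamed cluster of 631 nuclei. In all other named nuclei the summed CPM was 2.35% of the oligodendrocyte level in WT (exact Poisson interval 2.3 to 2.4), 2.42% (2.34 to 2.5) and 2.57% (2.5 to 2.64) in the PS19 libraries and 2.63% (2.57 to 2.7) in TG_PS19. With predicted doublets kept, these values were 5.19%, 4.17%, 4.69% and 5.35%. Without newly formed oligodendrocytes and precursors among the other nuclei, WT became the highest library and PS19 replicate 2 the lowest.

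RNA free in the suspension would add about the same number of molecules to each nucleus whatever its type, so UMIs per nucleus were compared among 10 other classes. Mag and Opalin were the most even over the classes in WT, and Mal had the highest median of the 9 genes. The Mal median over the classes was 0.314 UMIs per nucleus in WT, 0.189 and 0.192 in PS19 and 0.266 in TG_PS19, and 9, 7, 9 and 10 of the 10 classes lay within 1.5 times of that median. For Mag, with medians of 0.13, 0.125, 0.12 and 0.105, 10, 8, 7 and 9 classes did, and for Opalin 10, 7, 6 and 7.

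For Mal, Cldn11, Ugt8a and Mobp the same class was the highest in every library. Endothelial cells were the highest for Mal, at 0.516 UMIs per nucleus in WT (0.445 to 0.595), 0.429 and 0.47 in PS19 and 0.398 in TG_PS19. The next class was inhibitory neurons in WT (0.371) and PS19 (0.407 and 0.244) and mural cells in TG_PS19 (0.297), so that in PS19 replicate 1 the highest classes were nearly level. Fibroblasts were the highest for Cldn11, at 0.262 in WT (0.229 to 0.299), 0.291 and 0.375 in PS19 and 0.169 in TG_PS19, with class medians of 0.121, 0.158, 0.136 and 0.103. The next classes held 0.167, 0.241, 0.17 and 0.131, and in PS19 replicate 1 and TG_PS19 their intervals overlapped that of fibroblasts. Oligodendrocyte precursors were the highest for Ugt8a, at 0.551 in WT (0.476 to 0.634), 0.799 and 0.852 in PS19 and 0.642 in TG_PS19. That was 8.43, 17.1, 22.3 and 12.6 times the median of the 10 classes. Inhibitory neurons were the highest for Mobp, at 0.0323 in WT, 0.0926 and 0.0732 in PS19 and 0.0455 in TG_PS19. Those values rest on 6, 5, 6 and 7 UMIs, and the next classes held 0.0258, 0.0619, 0.0474 and 0.0339.

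Mbp was highest per nucleus in both excitatory classes. Dentate granule neurons held 0.607 Mbp UMIs per nucleus in WT (0.569 to 0.646), 0.754 and 0.922 in PS19 and 0.723 in TG_PS19, and other excitatory neurons held 0.537, 0.835, 0.848 and 0.538. Inhibitory neurons held 0.167, 0.407, 0.329 and 0.286, Cajal-Retzius neurons 0.107, 0.103, 0.0469 and 0.0609, and astrocytes 0.0886, 0.111, 0.0723 and 0.0659. Excitatory nuclei were also the deeper ones, with medians of 6442 (dentate granule) and 10593.5 UMIs in WT against 2880 in astrocytes. Relative to depth, unscaled Mbp was at 88.4 CPM in WT dentate granule neurons, 83.8 and 85.5 in PS19 and 87.2 in TG_PS19, the highest of the 10 classes in each library. Other excitatory neurons were at 46.4, 67.9, 61.3 and 49.6 CPM, and WT mural cells (60.7) and endothelial cells (56.7) were above the first of these. On the TMM-scaled measure other excitatory neurons were at 47.2, 65.8, 60.7 and 52.0, and microglia at 49.6, 46.0, 70.4 and 75.9. Microglia were thus above other excitatory neurons in each library but PS19 replicate 1. Cajal-Retzius neurons of WT were at 53.3 on that measure. The Mbp locus also gives rise to golli transcripts, which neurons are known to make, and gene-level counts do not tell these from the myelin forms. The make-up of the 9-gene UMIs differed between classes: Mbp gave 37.6% of them in WT oligodendrocytes and 10.2% in WT astrocytes, and Mal gave 10.2% and 32.9%. Those shares are of UMIs and are not corrected for length.

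**Figure D5:**
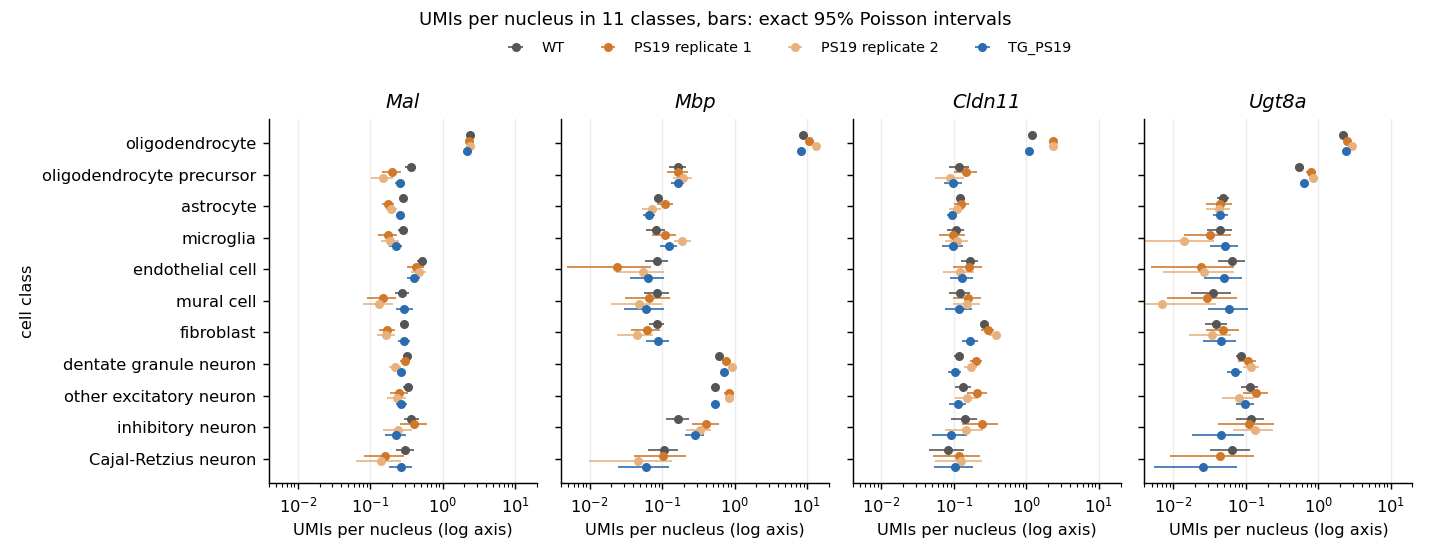
UMIs per nucleus (log axis) of Mal, Mbp, Cldn11 and Ugt8a in 11 classes, 1 point per library, with exact 95% Poisson intervals; classes with 0 UMIs in a library have no point. Mal lies near one level in most classes outside oligodendrocytes (medians 0.189 to 0.314), Mbp is raised in dentate granule and other excitatory neurons, Cldn11 in fibroblasts and Ugt8a in oligodendrocyte precursors.

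Across genotypes, Mal accounted for most differences outside oligodendrocytes. In 10 other classes with at least 50 nuclei in every library, 8 gene and class pairs were lower in PS19 than in WT and 0 were higher. Summed over those classes, edgeR called 1.26% of tests lower and 1.1% higher. Between TG_PS19 and PS19, 6 pairs were higher and 0 lower, where 2.72% of all tests were called higher and 1.4% lower. In each class 5 to 9 of the 9 genes were tested. The pairs come from the same 4 libraries and are not independent. Between TG_PS19 and WT 0 were called, where 1.86% of all tests were called. With predicted doublets kept the 8 lower and 6 higher pairs became 20 and 15, and after thinning they became 3 and 2.

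Mal was lower in PS19 than in WT in 6 classes: astrocytes, dentate granule neurons, fibroblasts, microglia, mural cells and oligodendrocyte precursors. In astrocytes it was at 93.2 CPM in WT, 43.5 and 40.5 in PS19 and 86.8 in TG_PS19. In microglia it was at 171.5, 75.0, 69.1 and 138. In both, the PS19 pair lay close together and well below WT and TG_PS19. The log2 fold change of PS19 against WT was -1.15 in astrocytes (SE 0.148, adjusted p = 0.000532) and -1.26 in microglia (SE 0.219, adjusted p = 5.44e-07), by edgeR.

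In the other 4 classes it was -0.83 (dentate granule neurons), -1.21 (fibroblasts), -1.41 (mural cells) and -1.47 (precursors). Without PS19 replicate 2 the dentate granule value was -0.50. Of all genes tested, 1.14% were lower in PS19 in astrocytes, 1.57% in dentate granule neurons, 2.1% in fibroblasts, 5.29% in microglia, 1.07% in mural cells and 0.0721% in precursors. TG_PS19 was higher than PS19 for Mal in 5 of the 6, by 1.05 in astrocytes, 1.19 in fibroblasts, 0.95 in microglia, 1.68 in mural cells and 0.97 in precursors. The shares of all genes higher there were 3.08%, 1.4%, 5.24%, 1.04% and 1.31% in the same order. In endothelial cells, where Mal was highest per nucleus, it was at 364 CPM in WT, 267 and 238 in PS19 and 297 in TG_PS19, and no comparison passed. The 2 PS19 libraries, where Mal was lower across these classes, also held the fewest barcodes (4643 and 4924, against 12762 and 9719) and the highest median UMIs per barcode (2996 and 3708.5, against 2643 and 2659), and the part of these in the result was not tested.

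The other 3 calls rest on few molecules. Ugt8a in microglia had 26 UMIs in WT, 8 and 4 in PS19 and 21 in TG_PS19, with a log2 fold change of -1.57 for PS19 against WT (SE 0.53, adjusted p = 0.0331) and 1.79 for TG_PS19 against PS19 (SE 0.554, adjusted p = 0.0167). Without PS19 replicate 2 these were -0.97 and 1.19. Mbp in fibroblasts had 74 UMIs in WT, 20 and 13 in PS19 and 31 in TG_PS19, with -1.12 for PS19 against WT (SE 0.331, adjusted p = 0.0292).

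The difference of each contrast between oligodendrocytes and all other named nuclei was tested as an interaction. For PS19 against WT, 5 of the 9 genes differed, where 6.28% of 21814 genes did. The difference, oligodendrocytes minus other nuclei, was positive for Cldn11 (0.46) and Mal (0.47). For Mal the log2 change in that fit was -0.55 in oligodendrocytes and -1.02 in the other nuclei. It was negative for Mbp (-0.77), Ugt8a (-0.77) and Cnp (-0.43), and for Mbp the changes were -0.10 and 0.66. These negative calls were lost with doublets kept: Mbp -0.0066, Ugt8a -0.10 (adjusted p = 0.63) and Cnp -0.21 (adjusted p = 0.353). Mog, Mag, Mobp (0.36, against -0.39 in the reported fit) and Opalin were called then, beside Cldn11 and Mal. With thinning the interaction test lost Mal (0.32, adjusted p = 0.121) and Cnp (-0.62, adjusted p = 0.116) and kept Mbp, Cldn11 and Ugt8a. For TG_PS19 against PS19 Mag alone differed (-0.41, adjusted p = 0.00577), where 3.39% of genes did. With doublets kept 7 genes differed in that comparison, Mag among them, with library totals Mag and Ugt8a, and with thinning none (Mag -0.46, adjusted p = 0.2). For TG_PS19 against WT, Mbp, Mobp, Cnp and Ugt8a differed, where 1.84% of genes did.

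The other nuclei include cells of the lineage, and their numbers moved with these values: newly formed oligodendrocytes numbered 10 in WT, 21 and 34 in PS19 and 25 in TG_PS19. With those and the precursors left out, Mbp (-0.10, adjusted p = 0.652) and Ugt8a (0.22, adjusted p = 0.404) no longer differed for PS19 against WT. The genes called were then Mog (0.35), Mag (0.53), Cldn11 (0.61) and Mal (0.44), where 6.16% of 21600 genes were called. Mag still differed for TG_PS19 against PS19 (-0.43, adjusted p = 0.00489), and for TG_PS19 against WT Cnp alone was called (-0.61, adjusted p = 0.00404), where 3.69% and 1.78% of genes were called.

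Newly formed oligodendrocytes were too few for a test. Their summed 9-gene level was 3019 CPM in WT (2533 to 3571), 4646 (4283 to 5031) and 6132 (5826 to 6450) in the PS19 libraries and 7346 (6929 to 7781) in TG_PS19. These were 26.3%, 40.3%, 57.4% and 73.1% of the level in oligodendrocytes of the same library. Single nuclei weigh heavily in these sums: the 61 and 77 Mobp UMIs of PS19 replicate 2 and TG_PS19 came from 4 of 34 and 8 of 25 nuclei. Thinned to 1000 UMIs, the median nucleus held 3, 4, 4 and 5 UMIs of the 9 genes. The genes were not equally advanced. Cnp (6 to 36 UMIs per library) stood at 58.9% to 101% of its oligodendrocyte level and Ugt8a at 43.3% to 76.4%. Mal (1 to 8 UMIs) stood at 1.9% to 5.99% and Opalin (0 to 3 UMIs) at 0% to 6.29%.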

How the data were processed

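The data are single-nucleus UMI counts of 4 libraries (1 WT, 2 PS19, 1 TG_PS19) of pooled hippocampus. The deposited values are raw UMI counts per gene and nucleus, which the authors produced with Cell Ranger 7.1.0 on GRCm38, per the submitters' processing notes. Whether intron reads were counted is not given in the sources used here. The 9 genes and all lists were chosen with earlier results of these data known.

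Barcodes under 500 UMIs or 300 genes, or above 5% mitochondrial UMIs, were removed (7 in all), and 2425 predicted doublets were left out (0.8% per 1000 nuclei, simulated doublets), leaving 29616 nuclei. Depth per library is given with the results. Clusters (Leiden, leidenalg 0.10.2, 2000 variable genes without the 9, 30 principal components, 15 neighbours) numbered 33 and were named from marker lists; 7 stayed unnamed. Class names mean that a cluster resembles the class. Python 3.11.15, numpy 2.4.6, scipy 1.17.1 and matplotlib 3.10.9 were used.

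Counts were summed per library and class and fitted over all genes with edgeR 4.0.16 (R 4.3.3, limma 3.58.1; low-count filter, TMM, quasi-likelihood F-test, two-sided, Benjamini-Hochberg within a class at 0.05). The fit held all 4 libraries and had 1 residual degree of freedom, which the PS19 replicates supply. In oligodendrocytes the spread of single genes was taken wholly from the trend over genes. On simulated oligodendrocyte counts for PS19 against WT (16097 genes), 53% of 100 genes changed by 1 log2 unit and 97% of 100 changed by 2 were recovered. Poisson and binomial intervals are exact, at 95%, and cover counting error only. Nuclei were called by Xist or by Y-linked UMIs where the other was at 0.

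All 9 members are named. Other genes of the lists are named where called in oligodendrocytes, largest change first, at most 12 per comparison (1 called gene and 1 marker are not reported here), and the 8 genes most like the members by Pearson r. Alternatives were relative log expression scaling, library totals, no low-count filter, DESeq2 1.42.0, a robust prior, doublets kept, Leiden resolutions 0.5 and 2.0, members among the variable genes, thinning to 1000 UMIs, each PS19 library left out, and sex-called nuclei. Adjusted residual degrees of freedom, single oligodendrocyte clusters, Y-called nuclei in every library and the other nuclei without the lineage were added after seeing the data. Promoter windows came from the RefSeq table.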

Additional observations from a re-analysis of the deposited data

Results flagged for a closer look

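In the test of the difference between oligodendrocytes and all other named nuclei, 10 values stood out. For PS19 against WT the log2 differences (oligodendrocytes minus other nuclei) were -0.77 for Mbp, -0.43 for Cnp, 0.46 for Cldn11, 0.47 for Mal and -0.77 for Ugt8a. For TG_PS19 against PS19 the difference was -0.41 for Mag. For TG_PS19 against WT the differences were -0.73 for Mbp, -0.64 for Mobp, -0.73 for Cnp and -0.45 for Ugt8a.

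Mobp and Opalin in oligodendrocytes differed from PS19 in opposite directions in the Y-called and the Xist-called nuclei of TG_PS19. Mobp gave -0.45 with Y-called and 0.19 with Xist-called nuclei, and Opalin gave 0.046 and -0.43. The difference between these nuclei was not tested.

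An unnamed cluster led by Dynlt1a, Ttr and Xist, in none of the tests above but counted in the shares of all myelin UMIs, held 631 TG_PS19 nuclei, 40 in WT, 2 and 0 in PS19, at a median of 956 UMIs. Its summed 9-gene level was 3976 CPM in TG_PS19 (3841 to 4114), 39.6% of the oligodendrocyte level, and 3011 in WT (2427 to 3693).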

How the results depend on the processing

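No paired analysis was possible because replicate numbers exist in PS19 only. Leaving out a PS19 library left no residual degrees of freedom, so those are values without a test. Library totals moved the median of all genes in oligodendrocytes to -0.06, -0.06 and -0.12 for PS19 against WT, TG_PS19 against PS19 and TG_PS19 against WT. Single named genes kept direction, and side of the threshold where there was a test, in 585 of their alternative values. Values without a test, such as those with a PS19 library left out, count among the 585 on direction alone. In 27 the call was lost, in 13 one was gained, and 22 fold changes within a class changed sign. The cause was not tested except for thinning, which holds fewer counts, and single clusters and sex-called nuclei, which hold fewer nuclei.

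Of the 9 genes in oligodendrocytes, for PS19 against WT 2 were called higher. Library totals, thinning and DESeq2 each left 0, and no filter, Y-called nuclei in every library and cluster 1 each left 1. The 1 called lower became 0 with library totals, thinning and DESeq2 and 2 in cluster 1. For TG_PS19 against PS19, 0 were higher and Y-called nuclei, in TG_PS19 or in every library, gave 1; the 2 lower became 1 with library totals and DESeq2 and 0 with thinning. For TG_PS19 against WT, Xist-called nuclei gave 1 higher and 1 lower and cluster 1 gave 1 lower, against 0.

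Of the 40 other genes, for PS19 against WT the 2 higher became 0 with library totals, thinning and DESeq2 and 1 with no filter and in cluster 1, and the 2 lower became 0 with thinning and DESeq2 and 1 in either cluster. For TG_PS19 against PS19 the 3 higher became 0 with library totals, thinning, DESeq2 and Y-called nuclei in every library, and 1 with Y-called TG_PS19 nuclei and in either cluster. The 6 lower became 2 with library totals, 0 with thinning, 3 in cluster 1 and 1 with DESeq2. For TG_PS19 against WT, Xist-called nuclei gave 1 higher against 0, and the 2 lower became 0 with library totals, thinning and DESeq2 and 1 with no filter, doublets kept, Y-called nuclei in every library and in either cluster.

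In the other classes, the 8 lower pairs for PS19 against WT became 20 with doublets kept and 3 with thinning, the 6 higher for TG_PS19 against PS19 became 15 and 2, and the 0 lower for TG_PS19 against WT became 1 with library totals and with adjusted degrees of freedom. The summed level as a percent of oligodendrocytes (WT, PS19 replicates 1 and 2, TG_PS19) was 5.19, 4.17, 4.69 and 5.35 with doublets kept, 2.96, 2.91, 2.72 and 3.18 with thinning, and 2.27, 1.94, 1.72 and 2.05 without newly formed oligodendrocytes and precursors. Of the differences between oligodendrocytes and other nuclei, the 5 for PS19 against WT became 3 with thinning, where Mal and Cnp were lost. With doublets kept the genes called there changed: Mbp, Cnp and Ugt8a were lost, and Mog, Mag, Mobp and Opalin were gained. The 1 for TG_PS19 against PS19 became 2 with library totals, 7 with doublets kept and 0 with thinning. The 4 for TG_PS19 against WT became 2 with doublets kept and with thinning and 1 without the lineage.

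Fold changes within a class that changed sign were small, none of them called in the reported fit. In oligodendrocytes for PS19 against WT, Mbp was 0.0062 with relative log expression scaling, 0.00077 with no filter, 0.013 with doublets kept, 0.0023 with thinning, 0.0070 in cluster 1, 0.017 without PS19 replicate 1 and 0.0069 with DESeq2. Without either PS19 library in turn Mbp ran from -0.016 to 0.017, Mog from -0.079 to 0.0028 and Mag from -0.058 to 0.36. Mog was 0.013 in cluster 1 and 0.0028 without PS19 replicate 2, and Mag was -0.058 without replicate 1. For TG_PS19 against PS19, Mobp was 0.19 with Xist-called nuclei, and Opalin was 0.046 with Y-called TG_PS19 nuclei, 0.11 with Y-called nuclei in every library and 0.069 in cluster 1. For TG_PS19 against WT, Mobp was -0.045 and -0.059 with those same Y-called sets, and Ugt8a was -0.030 with Xist-called nuclei. Outside oligodendrocytes for TG_PS19 against WT, Mal in astrocytes was 0.012 with doublets kept and 0.21 with thinning, Mbp in fibroblasts 0.14 at resolution 2.0 and 0.082 with thinning, and Ugt8a in microglia -0.020 with doublets kept. Some called differences between oligodendrocytes and other nuclei changed sign without newly formed oligodendrocytes and precursors. Ugt8a went from -0.77 to 0.22 for PS19 against WT. For TG_PS19 against WT, Ugt8a went from -0.45 to 0.35 and Mobp from -0.64 to 0.079. None of these was called after the change.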
